A study of Mus musculus with 20 samples.

Results

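The inflammasome and pyroptosis genes described here are the 10 genes Nlrp3, Casp1, Casp4, Pycard, Gsdmd, Il18, Aim2, Nlrp1b, Nlrc4 and Naip2. They were chosen by symbol, after Ensembl identifiers had been matched to GENCODE M21, and all 10 were among the 14456 listed genes. The libraries came from bone marrow-derived macrophages (BMDM), obtained by growing mouse marrow cells for 6 days with the growth factor M-CSF. The glucose experiment set 24 h of culture at 25 mM glucose (high glucose) against 5.5 mM glucose with 19.5 mM mannitol (normal glucose), a sugar alcohol that balances the osmotic strength. In the exosome experiment, naive BMDM were given either kind of BMDM exosome, or PBS alone, over 24 h. Exosomes are small vesicles, purified here from the medium of BMDM cultured in normal glucose (BMDM-NG-exo) or in high glucose (BMDM-HG-exo) and given at 2000000000 particles per ml. Each of the 5 groups held 4 libraries. The marrow donors were C57BL/6J mice, male and 8 to 12 weeks old, and no group carried an engineered allele. The exosome samples came from separate exosome preparations. Nothing states whether the cells of the 4 libraries of a group came from separate mice, in either experiment. The p-values therefore measure only the spread between these libraries.

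Inflammasomes are protein complexes that macrophages assemble when a sensor meets a microbial product or a sign of cell damage. The sensor recruits the adaptor ASC (Pycard) and with it caspase-1, which cuts pro-interleukin-1β and pro-interleukin-18 into their active forms and cuts gasdermin D. The freed end of gasdermin D forms pores in the plasma membrane, and the resulting lytic death is called pyroptosis. Caspase-11, the product of Casp4 in the mouse, binds cytosolic lipopolysaccharide and cuts gasdermin D without a sensor. Signals through NF-κB raise Nlrp3 and Il1b transcripts in macrophages, a step known as priming. The steps that follow take place on proteins, and transcript levels do not measure them.

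The windows of 250 bases before the transcription start are shown for Nlrp3 and Casp4, which were both lower with exosomes, and for Casp1, whose gene lies 1562 bases before Casp4 and which did not pass the test in any comparison. The sequences are RefSeq's, on build GRCm38.p6, 5′ to 3′ on the strand of the gene. Capitals mark matches on either strand to the consensus of the NF-κB site. The Nlrp3 window lies at chr11:59541319-59541568 and the Casp1 window at chr9:5298267-5298516, both on the plus strand. The Casp4 window lies at chr9:5308599-5308848 on the plus strand.
Nlrp3: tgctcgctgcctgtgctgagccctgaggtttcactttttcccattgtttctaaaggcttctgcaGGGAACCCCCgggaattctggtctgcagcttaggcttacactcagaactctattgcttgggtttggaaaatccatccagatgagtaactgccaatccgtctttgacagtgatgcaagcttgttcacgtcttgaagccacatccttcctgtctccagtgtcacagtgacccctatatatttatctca
Casp4: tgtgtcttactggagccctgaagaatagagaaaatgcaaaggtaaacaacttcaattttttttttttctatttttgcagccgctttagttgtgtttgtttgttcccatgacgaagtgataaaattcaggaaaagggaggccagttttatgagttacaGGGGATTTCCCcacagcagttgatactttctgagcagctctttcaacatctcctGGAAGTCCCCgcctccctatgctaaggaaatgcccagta
Casp1: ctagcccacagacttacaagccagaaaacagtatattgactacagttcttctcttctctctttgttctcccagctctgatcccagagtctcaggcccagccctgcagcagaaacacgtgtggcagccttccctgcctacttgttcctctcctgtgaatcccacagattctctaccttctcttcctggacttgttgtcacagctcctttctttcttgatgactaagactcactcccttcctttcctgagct
The Nlrp3 match began at position -186 from the start, and Casp4 matches began at positions -93 and -92, which overlap, and -39. Of the 32536 distinct windows of this length in the RefSeq table, 7.28% held this motif. The table matched 9 of the 10 members, all but Gsdmd, with 12 windows, and 2 of the 9, Nlrp3 at 1 of its starts and Casp4, held the motif. None of the 12 windows held the interferon-stimulated response element GAAANNGAA, found in 7.15% of all windows, or the gamma-activated site TTCNNNGAA, found in 7.04%. Both strands were searched for each motif. The other Nlrp3 window, at chr11:59542436-59542685, held no match and is not shown, and Gsdmd, also lower with exosomes, had no window to search. The windows shown were picked by the exosome results, and whether the motif goes with those changes was not tested. A match describes letters and shows no bound factor.

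Total reads per library, recovered from the deposited normalized counts, ran from 34016445 to 56310712. The PBS libraries held 34016445 to 44693640 reads and the 8 exosome libraries 40751064 to 56310712, ranges that overlap, and the part of depth in any result was not tested. All 8 macrophage markers were listed, and their summed normalized count lay between 628420 and 878735. None of the markers of dendritic cells (6), T or NK cells (7), mast cells or basophils (5) or erythroid cells (6) was listed. Of the 9 neutrophil markers 4 were listed, and they summed to between 111 and 253 normalized counts. Of the 6 stromal markers 4 were listed (sum 110 to 372), of the 4 endothelial markers Pecam1 and Kdr (280 to 456), and of the 5 B cell markers only Cd79b (17.4 to 68.0).

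Each member had 178 reads or more in every library, with Il18 and Casp4 the least covered. On the scale of normalized counts per kilobase of merged exons, the mean level over the 20 libraries was highest for Gsdmd (1460) and Casp1 (1292). These are the pore-forming protein of pyroptosis and the protease that frees it. Then came the sensors Nlrp1b (838), Naip2 (767) and Nlrp3 (727). The adaptor Pycard (447) and the DNA sensor Aim2 (399) lay lower on this scale, and Il18 (246), Nlrc4 (197) and Casp4 (162) were lowest. Merged exons hold the exons of all annotated transcripts, and those of Pycard cover 3800 bases of a gene at chr7:127989708-127993867. The order depends on this length, which can exceed that of the transcripts present, and other lengths were not tested. For no member did the highest library exceed the lowest by more than 1.71-fold (Il18), and for Naip2 the factor was 1.13. Naip2, Nlrp1b and Casp4 have close relatives in the genome, and how reads shared between relatives were assigned is not given in the sources used here, so that their levels are uncertain to that extent.

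**Figure D1:**
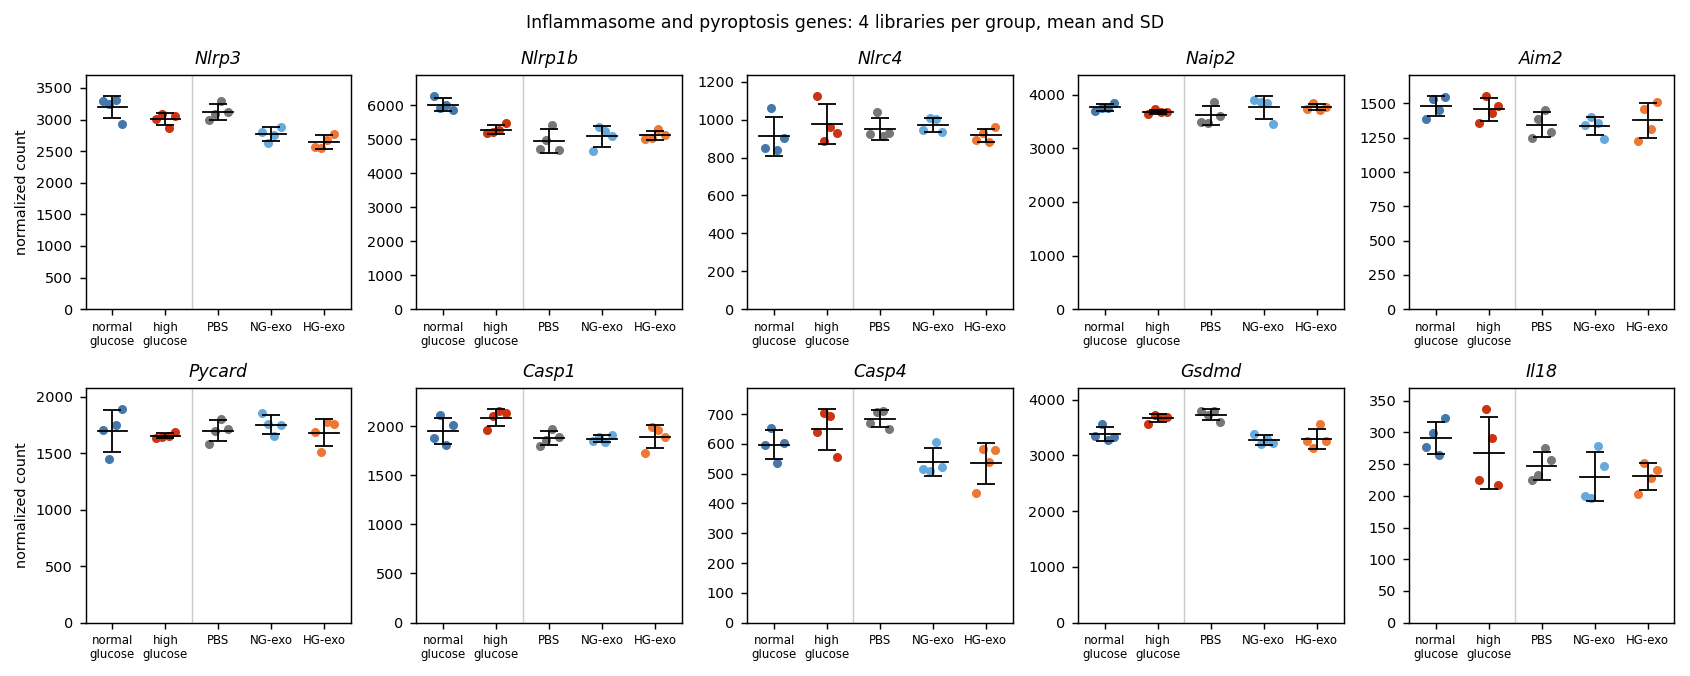
Normalized count (linear axis from 0) of each member in the 20 libraries of the 5 groups, with 1 point per library and a bar and whiskers for the mean and SD of 4 libraries. The grey line parts the glucose from the exosome experiment; Nlrp3, Casp4 and Gsdmd lie lower in both exosome groups than in PBS, and Nlrp1b lies lower in high than in normal glucose.

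The first comparison asked which members differed after 24 h in high glucose. Only the sensor gene Nlrp1b passed the test, and it was lower. Some forms of NLRP1B are cut by proteases of pathogens, which sets off their own degradation. Whether the form in these mice responds to such proteases was not tested. The gene, ENSMUSG00000070390, spans chr11:71153102-71230733 on the minus strand. Its normalized counts in normal glucose were 6270, 5922, 5995 and 5851 in libraries 1, 3, 5 and 6, and in high glucose 5186, 5209, 5261 and 5466 in libraries 1, 2, 4 and 6. All 4 high glucose libraries lay below all 4 normal glucose libraries, and groups were apart, in either direction, for 16.3% of genes. The mean fell from 6009 ± 183 to 5280 ± 128 normalized counts (SD, n = 4). On the scale of log2(normalized count + 1), the change was -0.19 (SE 0.040, 95% interval -0.27 to -0.11), which is 12.1% lower (adjusted p = 0.00106, limma with Benjamini-Hochberg adjustment over 14425 genes). Of all genes tested, 13.3% were called in this comparison and 5.53% were called lower, so that 1 member of 10 is near the background. The adjusted p was 0.0521 when the spread was fitted without a trend on the mean. The summed count of the 8 macrophage markers was also different, at 628420 to 702912 in normal and 808014 to 878735 in high glucose. The summed endothelial markers Pecam1 and Kdr lay at 290 to 327 in normal and 329 to 456 in high glucose, while the neutrophil, stromal and B cell sums overlapped. The part of these markers in the result was not tested.

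The neighbouring paralog Nlrp1a, a sensor of the same family, did not pass, with 857 ± 98.5 normalized counts in normal and 821 ± 93.2 in high glucose (SD, n = 4). The same fit across both experiments asked whether the glucose effect on Nlrp1b differed from that of BMDM-HG-exo against BMDM-NG-exo. The difference between the effects was -0.20 on the log2 scale (SE 0.063), and its adjusted p of 0.0621 by limma did not pass the threshold. Of 9 other settings 3 passed. These were quantile normalization (0.0206), a mean of at least 50 (0.0474) and DESeq2 on the recovered reads (0.0386). Of 20 limma fits with 1 library left out 3 passed, without PBS 3, BMDM-NG-exo 2 or BMDM-NG-exo 3 (0.0377 to 0.0452). The highest adjusted p of the 20 fits was 0.1915.

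Gsdmd showed the opposite arrangement without passing. Its normalized counts were 3349, 3555, 3269 and 3329 in the normal glucose libraries. In the high glucose libraries they were 3567, 3727, 3688 and 3681. All 4 high glucose libraries lay above all 4 normal glucose libraries, as groups did, in either direction, for 16.3% of genes. The difference was 0.12 on the log2 scale (SE 0.045), and the adjusted p by limma was 0.0712. It passed in 1 of 8 limma fits with 1 library left out (0.0314 without normal glucose 3), and the highest of these was 0.186. Among 10 other settings it passed in 1, DESeq2 (0.0443).

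The other 8 members overlapped between normal and high glucose. The caspase genes Casp1 (0.10, SE 0.056) and Casp4 (0.12, SE 0.091) and the flagellin-response gene Nlrc4 (0.10, SE 0.081) had positive log2 differences. Nlrp3 (-0.09, SE 0.048), Il18 (-0.14, SE 0.138), Pycard (-0.03, SE 0.064), Naip2 (-0.03, SE 0.043) and Aim2 (-0.02, SE 0.061) had negative ones. Their adjusted p-values by limma were all 0.266 or more. The 95% intervals of the 8 differences ran at the widest from -0.42 to 0.30, both reached by low-count members, Il18 and Casp4. The median log2 difference of the 10 members was -0.03, beside -0.003 over all genes tested.

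Exosomes of either kind were then set against PBS. Nlrp3, Casp4 and Gsdmd were lower in BMDM-HG-exo and in BMDM-NG-exo than in PBS, and the 7 other members passed in neither comparison. Each is at a different step: a sensor, the lipopolysaccharide-binding caspase and the pore-forming substrate. Both comparisons share the 4 PBS libraries, so they are not independent of each other. In BMDM-HG-exo against PBS, 4.84% of all genes were called and 3.08% were called lower, beside 3 members of 10. The shares in BMDM-NG-exo against PBS were 3% and 2.11%, again beside 3 members of 10.

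Nlrp3 (ENSMUSG00000032691, chr11:59541568-59566956, plus strand) is the sensor that responds to potassium efflux, crystals and extracellular ATP. It had normalized counts of 2988, 3090, 3292 and 3115 in PBS libraries 1 to 4. The counts were 2809, 2629, 2751 and 2883 in BMDM-NG-exo and 2563, 2555, 2682 and 2779 in BMDM-HG-exo. All 8 exosome libraries lay below all 4 PBS libraries, an arrangement seen in 2.73% of genes tested. The mean fell from 3121 ± 127 in PBS to 2645 ± 106 in BMDM-HG-exo (SD, n = 4), a log2 change of -0.24 (SE 0.049, adjusted p = 0.00127 by limma). In BMDM-NG-exo the mean was 2768 ± 107 (SD, n = 4), and the log2 change from PBS was -0.17 (SE 0.049, adjusted p = 0.0397 by limma). The BMDM-HG-exo call passed without any 1 of the 12 libraries. The BMDM-NG-exo call was lost without PBS 2, PBS 3, PBS 4, BMDM-NG-exo 1, BMDM-NG-exo 2 or BMDM-NG-exo 3, with adjusted p-values from 0.0600 to 0.167.

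Casp4 (ENSMUSG00000033538, chr9:5308828-5336783, plus strand) had the largest change of the members. Its normalized counts were 670, 709, 710 and 651 in PBS, 515, 508, 608 and 524 in BMDM-NG-exo, and 434, 584, 541 and 578 in BMDM-HG-exo. Again no exosome library reached the lowest PBS library, and BMDM-HG-exo 1 was the lowest of all 20. The mean was 685 ± 29.2 in PBS, 538 ± 46.6 in BMDM-NG-exo and 534 ± 69.8 in BMDM-HG-exo (SD, n = 4). It was 22.4% lower in BMDM-HG-exo (log2 change -0.37, SE 0.098, adjusted p = 0.0175 by limma) and 21.5% lower in BMDM-NG-exo (-0.35, SE 0.098, adjusted p = 0.0370). Without BMDM-HG-exo 1 the first change was -0.27 and its adjusted p was 0.115, and without PBS 2 it was 0.0598. The second was lost without any 1 of the PBS libraries or without BMDM-NG-exo 1, 2 or 4 (adjusted p from 0.0525 to 0.122).

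Casp1 lies next to Casp4 on the same strand and overlapped between the 3 groups, with means of 1877 ± 75.3 in PBS, 1870 ± 34.2 in BMDM-NG-exo and 1891 ± 118 in BMDM-HG-exo (SD, n = 4). Reads of both genes can be set against each other within a library, without any scaling. This ratio was examined after the values had been seen and is a description. PBS libraries held 36.5 ± 1.60 Casp4 reads per 100 Casp1 reads (SD, n = 4, 34.6 to 38.2). The ratio was 28.8 ± 2.82 in BMDM-NG-exo (26.9 to 33.0) and 28.2 ± 2.36 in BMDM-HG-exo (25.1 to 30.6). In the glucose experiment it was 30.6 ± 0.961 in normal and 31.2 ± 3.41 in high glucose, and these ranges overlapped.

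Gsdmd (ENSMUSG00000022575, chr15:75862327-75867408, plus strand) had normalized counts of 3802, 3730, 3799 and 3598 in PBS. The counts were 3390, 3200, 3299 and 3224 in BMDM-NG-exo and 3251, 3126, 3556 and 3257 in BMDM-HG-exo. All 8 exosome libraries were again below the lowest PBS library, with BMDM-HG-exo 3 close to it. The log2 change was -0.18 in BMDM-HG-exo (SE 0.046, adjusted p = 0.0129 by limma) and -0.19 in BMDM-NG-exo (SE 0.046, adjusted p = 0.0144). The first was lost without BMDM-HG-exo 2 (adjusted p = 0.0759), and the second without PBS 1 or BMDM-NG-exo 2 (0.0524 and 0.0548).

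The mean of both exosome groups was also set against PBS, a comparison added after the data had been seen. The log2 changes were -0.21 for Nlrp3 (SE 0.043, adjusted p = 0.00120), -0.36 for Casp4 (SE 0.085, adjusted p = 0.00553) and -0.18 for Gsdmd (SE 0.040, adjusted p = 0.00240), all by limma. In this comparison 4.69% of genes were called and 3.05% were called lower. The 3 calls passed without any 1 of the 12 libraries. When the spread was fitted without a trend on the mean, Casp4 did not pass here (adjusted p = 0.0554), nor did Casp4 and Gsdmd in BMDM-HG-exo (0.0875 and 0.0801) or any of the 3 in BMDM-NG-exo (0.113 to 0.164). Some macrophage markers moved with them: Adgre1, Csf1r, Itgam, Fcgr1 and Cd14, 5 of the 8 markers, were called lower, with log2 changes from -0.18 to -0.51. Cd68, Mertk and Lyz2 were not called lower. The summed count of the 8 markers was 794502 to 841224 in PBS, 717507 to 773976 in BMDM-NG-exo and 735061 to 759636 in BMDM-HG-exo. The part of this in the changes of the members was not tested, and in bulk RNA fewer cells of a type and less RNA per cell cannot be told apart.

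**Figure D2:**
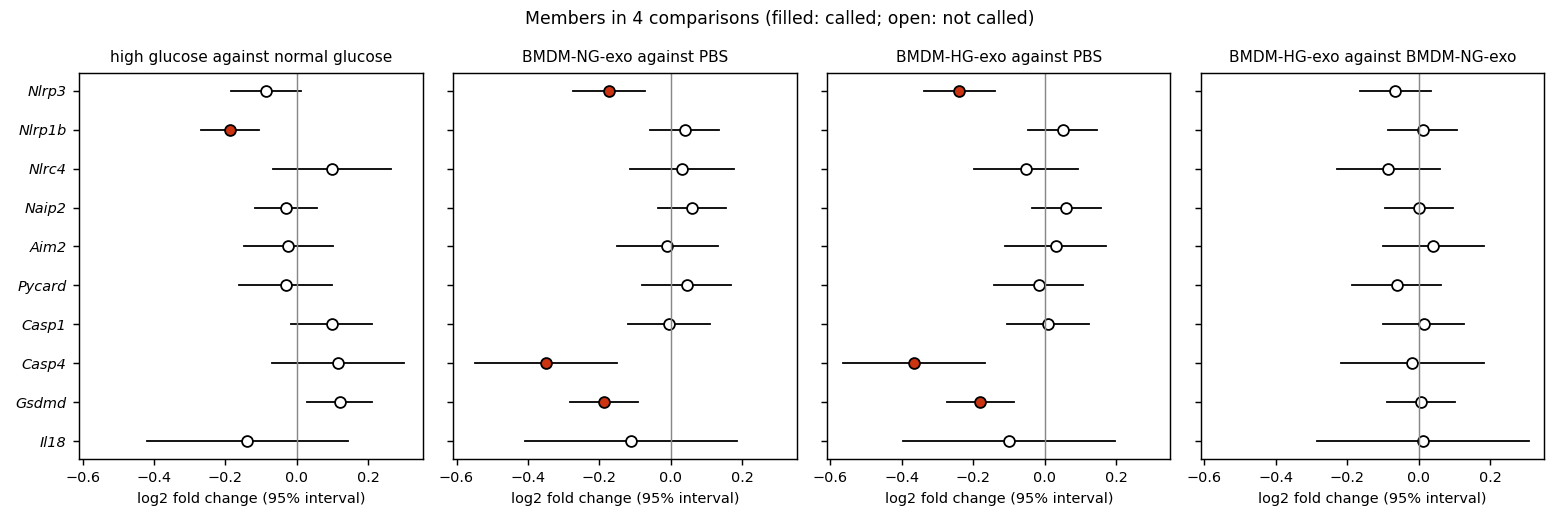
Log2 fold change (x axis) of each member in 4 comparisons, with the 95% interval as a line and filled points for genes that were called. Nlrp3, Casp4 and Gsdmd are called in both comparisons with PBS, Nlrp1b in high against normal glucose, and none in BMDM-HG-exo against BMDM-NG-exo.

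Whether the glucose history of the vesicle donors mattered was asked by setting BMDM-HG-exo against BMDM-NG-exo. No member was called by limma, and none had an unadjusted p under 0.05. Of all genes, 0.0139% were called in this comparison and 6.54% had an unadjusted p under 0.05. The largest difference was that of Nlrc4, at -0.08 on the log2 scale (SE 0.072, adjusted p = 0.933 by limma). For Nlrp3, Casp4 and Gsdmd the differences were -0.07 (95% interval -0.17 to 0.03), -0.02 (-0.22 to 0.18) and 0.01 (-0.09 to 0.10). Il18 had the widest interval, from -0.28 to 0.31, and the other 9 lay within -0.23 and 0.18. Differences inside these intervals are compatible with the data from 4 libraries a group. The intervals do not give the smallest difference that would have been called, which was not worked out.

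Against PBS and BMDM-NG-exo combined, which were the controls of the study, no member was called in BMDM-HG-exo by limma, edgeR or DESeq2. The share of all genes called was 0.201% by limma, 0.222% by edgeR and 0.881% by DESeq2. Only Nlrp3 had an unadjusted p under 0.05 by limma, with a log2 difference of -0.15 (SE 0.052, adjusted p = 0.239), beside 10.5% of all genes. Casp4 (-0.19, SE 0.103) and Gsdmd (-0.09, SE 0.051) had adjusted p-values of 0.539 and 0.589. The controls of this comparison hold BMDM-NG-exo, in which all 3 genes were lower than in PBS.

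Most members without a call in the exosome experiment had small differences. The sensors Aim2, Nlrp1b, Nlrc4 and Naip2, the adaptor Pycard and Casp1 had log2 differences from PBS between -0.05 and 0.06 in both exosome groups. Il18, the cytokine cut by caspase-1, had 247 ± 22.5 normalized counts in PBS, 230 ± 39.1 in BMDM-NG-exo and 231 ± 21.2 in BMDM-HG-exo (SD, n = 4). Naip2, the receptor of the rod protein of bacterial secretion systems, had coefficients of variation of 1.79% in normal glucose, 1.11% in high glucose, 5.02% in PBS, 5.67% in BMDM-NG-exo and 1.43% in BMDM-HG-exo. The largest coefficient of a member in any group was that of Il18, at 21.2% in high glucose, where libraries 1 and 6 (225 and 218) lay apart from libraries 4 and 2 (292 and 337).

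Across all 5 groups, Nlrp3 was ordered normal glucose, PBS, high glucose, BMDM-NG-exo and BMDM-HG-exo, and each neighbour in this order overlapped the next. For Gsdmd the order was PBS, high glucose, normal glucose, BMDM-HG-exo and BMDM-NG-exo, and only high and normal glucose did not overlap. For Nlrp1b, normal glucose stood above high glucose without overlap, and the other groups followed with overlap. Its 4 normal glucose libraries were the highest of the 20. Among the other 7 members every pair of neighbours overlapped. The glucose and exosome experiments differ in more than the treatment, and between them experiment and group cannot be told apart.

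Likeness to Nlrp3, Casp1 and Casp4 was measured over the 20 libraries as the root mean square difference of log2 values, each gene centred on its mean, among 11717 genes. The genes nearest to Nlrp3 were the cholesterol exporter gene Abca1 (0.065), Themis2 (0.069) and Samhd1 (0.074), against a median of 0.183 over all genes. Those nearest to Casp1 were Ptprc, which encodes CD45 (0.050), Abcd2 (0.052) and Cul1 (0.053). Those nearest to Casp4 were the lysosomal phosphatase gene Acp2 (0.127), the chemokine receptor gene Ccr2 (0.128) and Adgre1, which encodes the macrophage marker F4/80 (0.130). Casp4 had fewer reads than Nlrp3 and Casp1, and its nearest genes lay farther away. The medians over all genes were 0.165 for Casp1 and 0.235 for Casp4. A gene with 1 unchanging value in all 20 libraries would lie at 0.117 from Nlrp3, 0.086 from Casp1 and 0.188 from Casp4.

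Beyond the members, 7 lists of pathway genes were examined, which together held 74 listed genes. In high against normal glucose, 22 of them were higher and 5 lower, beside 7.74% and 5.53% of all genes. By list, the share called ran from 11.1% (other caspases and death effectors) to 71.4% (guanylate-binding and immunity-related GTPases), beside 13.3% of all genes. Of the 16 genes that act upstream of NLRP3 or pyrin, 2 rose and 1 fell, a share called of 18.8%. Panx1, which encodes a channel that releases ATP, rose from 401 ± 39.7 to 704 ± 66.4 normalized counts (SD, n = 4), a log2 change of 0.81 (SE 0.097, adjusted p = 1.02e-07 by limma). Txnip, a glucose-responsive gene whose protein is a described partner of NLRP3, rose by 0.25 (SE 0.033, adjusted p = 9.57e-07). Clic4, an intracellular chloride channel gene, fell by 0.11 (SE 0.036, adjusted p = 0.0484). The kinase gene Nek7, which NLRP3 needs for assembly, and the ATP receptor gene P2rx7 did not pass, with log2 differences of -0.10 and -0.11 (adjusted p = 0.149 and 0.0663).

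Of the 9 other caspases and death effectors, only Ninj1 rose. Its product ruptures the plasma membrane after gasdermin D has formed pores. Ninj1 went from 6514 ± 444 to 8652 ± 360 normalized counts (SD, n = 4), with all high glucose libraries above all normal glucose libraries (log2 change 0.41, SE 0.043, adjusted p = 6.9e-09 by limma). Casp8, the apoptotic caspase that can also cut gasdermin D, differed by -0.03 (SE 0.044).

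Of the 8 listed ligands, decoys and receptors of the interleukin-1 family, 2 fell and none rose. Il18bp, which encodes the soluble decoy that binds interleukin-18, went from 311 ± 34.5 to 229 ± 46.8 normalized counts (SD, n = 4), a log2 change of -0.46 (SE 0.145, adjusted p = 0.0275 by limma). The other was Il1rl1, the interleukin-33 receptor gene, which is outside the rule for named genes and was named after its values were seen. It fell by 0.87 on the log2 scale (adjusted p = 0.022 by limma). Il1rl1 counts were low, at 75.4 to 98.1 with normal glucose and 33.6 to 64.2 with high glucose. Il1b was low, at 26.0, 32.0, 101 and 57.8 normalized counts with normal glucose, and 66.4 to 90.0 with high glucose. These ranges overlapped, and the log2 difference of 0.70 (SE 0.312) had an adjusted p of 0.15. Il1rn, the gene of the receptor antagonist, differed by -0.17 (SE 0.095, adjusted p = 0.254). Il1a was not among the listed genes analysed here.

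Some guanylate-binding and immunity-related GTPases, but not all, open pathogen vacuoles and expose lipopolysaccharide to caspase-11. The list of 7 such GTPase genes had 4 higher and 1 lower. Gm12250 (0.83, SE 0.094), Igtp (0.51, SE 0.10) and Irgm1 (0.49, SE 0.056) rose and Gbp7 (-0.32, SE 0.107) fell. Of 17 other sensors, 6 rose and 1 fell. The nucleic acid sensor genes Cgas (0.50, SE 0.115), Ifi211 (0.48, SE 0.090) and Zbp1 (0.43, SE 0.078) rose, and Naip6 (-0.17, SE 0.050), a paralog of Naip2, fell. Naip5, the flagellin receptor gene, had a log2 difference of -0.12 (SE 0.052, adjusted p = 0.134 by limma). Of 10 transcription factor genes 6 rose, with Irf7 the furthest (0.60, SE 0.086, adjusted p = 2.87e-06), while Irf2 (-0.06) and Irf8 (0.02) did not pass. Of 8 inhibitor genes 3 rose.

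**Figure D3:**
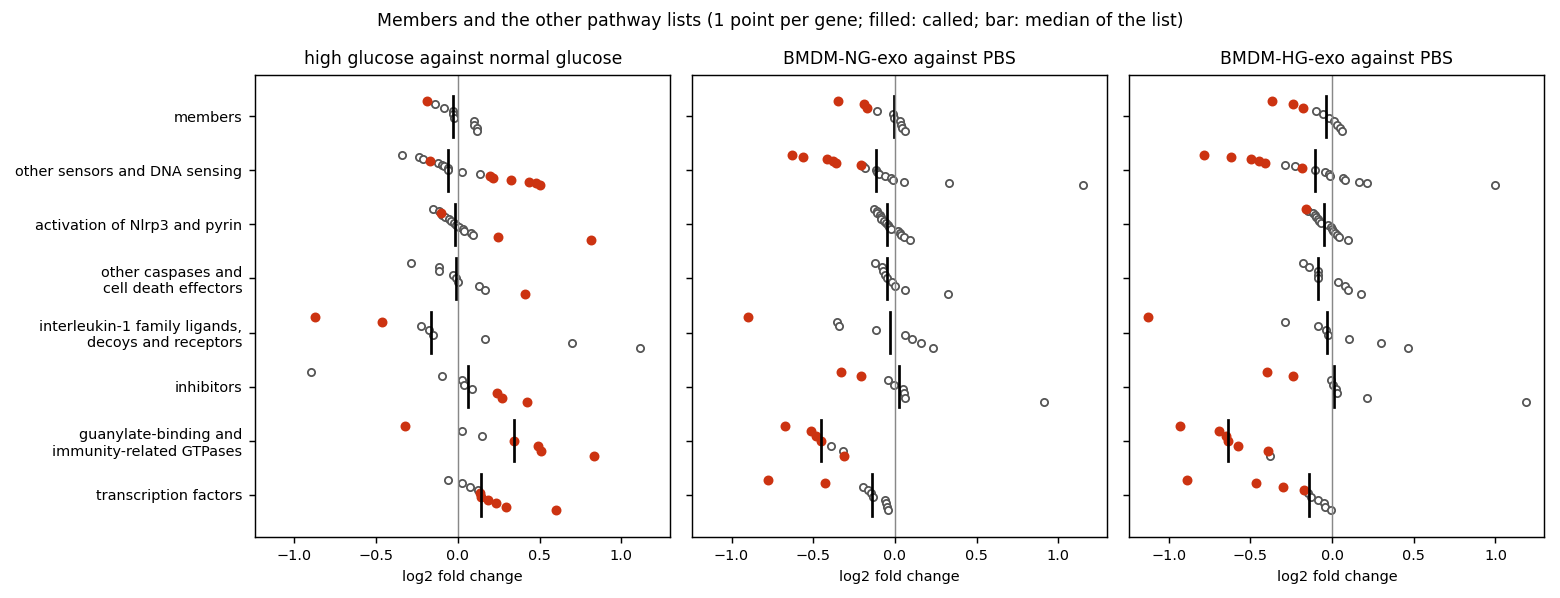
Log2 fold change (x axis) of every listed gene of the members and of the 7 other lists in 3 comparisons, with filled points for called genes and a black bar for the median of each list. In glucose the 74 other genes divide into 22 called higher and 5 lower, and against PBS all called genes are lower, 16 in BMDM-NG-exo and 20 in BMDM-HG-exo.

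In the comparisons of each exosome group with PBS, every pathway gene that was called was lower. Of the 74 genes, 20 were lower and 0 higher in BMDM-HG-exo than in PBS, beside 3.08% of all genes called lower and 1.76% called higher. In BMDM-NG-exo 16 were lower and 0 higher, beside 2.11% called lower and 0.888% called higher. The GTPases held 6 and 5 of the calls, of 7 genes, and the other sensors held 6 in each, of 17. With both exosome groups together against PBS, 20 of the 74 were lower and 1 was higher. The latter was Naip1, a paralog of Naip2, which is outside the rule for named genes and was named after its values were seen. Its log2 change was 1.07 (SE 0.307, adjusted p = 0.0277 by limma), with groups overlapping. Naip1 was low, at 13.9 to 31.0 normalized counts in PBS, 38.5 to 71.3 in BMDM-NG-exo and 30.2 to 64.3 in BMDM-HG-exo. The death effectors held none in the comparisons of either exosome group with PBS by limma, with 0 and 1 gene at an unadjusted p under 0.05.

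Il1b, the main cytokine substrate of caspase-1, had 149, 179, 198 and 142 normalized counts in PBS, 87.7, 106, 72.7 and 90.9 in BMDM-NG-exo and 42.3, 88.2, 94.2 and 91.6 in BMDM-HG-exo. Every exosome library lay below the lowest PBS library. The log2 change was -1.13 in BMDM-HG-exo (SE 0.237, adjusted p = 0.00162 by limma) and -0.90 in BMDM-NG-exo (SE 0.237, adjusted p = 0.0224). Irf7, an interferon-induced transcription factor gene, went from 2330 ± 117 in PBS to 1362 ± 147 in BMDM-NG-exo and 1270 ± 201 in BMDM-HG-exo (SD, n = 4). Its log2 changes were -0.78 and -0.89 (SE 0.082 each). Gm12250, Irgm1, Ifi211 and Zbp1 also fell in both comparisons, with log2 changes between -0.31 and -0.78.

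Ninj1 and Panx1, which rose in glucose, did not pass with exosomes. Ninj1 had 7961 ± 766 normalized counts in PBS, 7638 ± 710 in BMDM-NG-exo and 7479 ± 405 in BMDM-HG-exo (SD, n = 4). Panx1 had 541 ± 33.7, 578 ± 28.3 and 578 ± 28 in these groups. Tested in the fit of all 20 libraries, the effect of glucose minus that of BMDM-HG-exo against BMDM-NG-exo was 0.44 for Ninj1 (SE 0.079, adjusted p = 0.000223 by limma) and 0.81 for Panx1 (SE 0.129, adjusted p = 3.12e-05). It passed for 16 of the 74 pathway genes and for none of the 10 members, beside 4.74% of all genes.

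**Figure D4:**
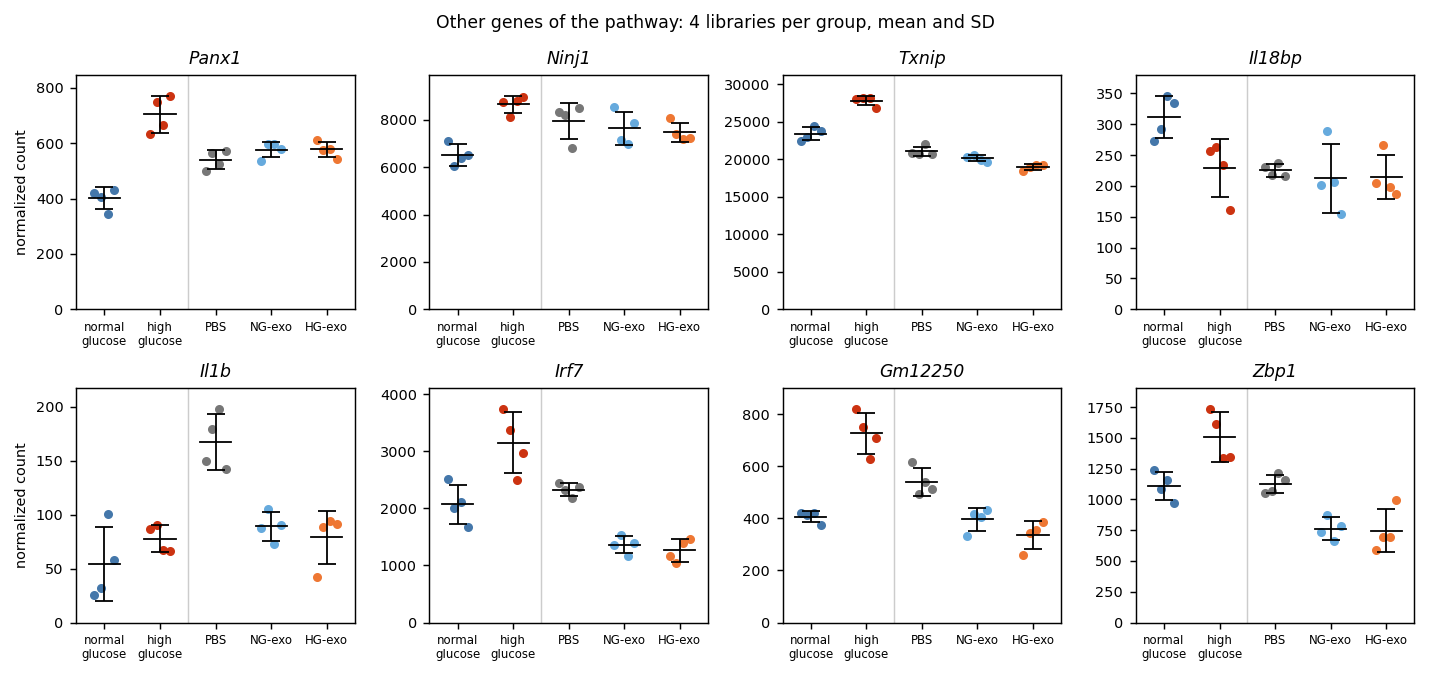
Normalized count (linear axis from 0) of 8 other pathway genes in the 20 libraries, with 1 point per library and a bar and whiskers for the mean and SD of 4 libraries. Panx1, Ninj1 and Txnip lie higher in high than in normal glucose, Il18bp lies lower, and Il1b, Irf7, Gm12250 and Zbp1 lie lower in both exosome groups than in PBS.

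In the exosome experiment Txnip had 21029.5 ± 654 normalized counts in PBS, 20109 ± 396 in BMDM-NG-exo and 18976.5 ± 404 in BMDM-HG-exo (SD, n = 4). The BMDM-HG-exo libraries lay below all others of this experiment. The log2 difference from PBS of -0.15 had an adjusted p of 0.00187 by limma, but its size was just under the limit of 0.15 used for calls in this experiment. Against BMDM-NG-exo it was -0.08 (SE 0.032, adjusted p = 0.621).

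With BMDM-HG-exo set against the combined controls, 0 of the 74 genes were called by limma, 22 had an unadjusted p under 0.05, and DESeq2 called 2. Leaving out BMDM-NG-exo 3 gave 6 calls by limma, and leaving out BMDM-NG-exo 1 gave 2.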

How the data were processed

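The long RNA libraries of mouse BMDM were analysed, 20 libraries in 5 groups of 4. Per the labels and the study's methods, the authors made stranded total RNA libraries from 10 ng of RNA with depletion of ribosomal cDNA. Reads were trimmed by cutadapt, aligned to GRCm38 by STAR and assigned to genes by featureCounts, with read 2 as the sense strand. The annotation used for counting is not given in the sources used here. The deposited signal is a normalized count: the authors scaled raw counts with size factors from the median ratio method of DESeq2. Whole reads were recovered from the steps between the values, and 100% of the values came out whole within 0.01 of a read. In PBS 4 and BMDM-HG-exo 1 the step was close to 1, and size factors recomputed from the reads differed from the deposited scaling by 0%.

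Log2(normalized count + 1) was tested with limma 3.58.1 in R 4.3.3 (eBayes with a trend), two-sided, on genes whose mean was 10 or more, with Benjamini-Hochberg adjustment over all of them. Calls needed an adjusted p under 0.05. With exosomes they also needed a log2 fold change of 0.15 or more in either direction. The glucose libraries, the exosome libraries and, for the difference between effects, all 20 were fitted separately. A fold change on this scale understates the change of low genes. The alternatives were other pseudocounts, filters and normalizations, the fit without the trend, edgeR 4.0.16 and DESeq2 1.42.0 on the recovered reads, the replicate block, other sets of groups and each library left out. The count tests on the recovered reads called 1904 (edgeR) and 2144 (DESeq2) genes in high against normal glucose, beside 1914 by limma. Python 3.11.15 with numpy 2.4.6, pandas 2.3.3 and matplotlib 3.10.9 made the tables and plots.

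The members and lists were chosen with earlier results of these data known, and the comparison of both exosome groups with PBS was added after seeing the data. Named genes were the members, up to 8 called list genes in each direction with a mean of at least 50, and 13 fixed genes of the pathway. Exosome libraries of the 3 groups share dates in the labels, 1 library per group and date. The deviations of 12 same-date pairs of libraries from their group means correlated with a mean r of 0.012 (-0.018 to 0.056), beside -0.004 for 36 pairs of different dates. Annotation and positions were taken from GENCODE M21 on GRCm38, in which 14421 listed genes had an entry. The small RNA, human and other data of the study were not analysed here.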

Additional observations from a re-analysis of the deposited data

Results flagged for a closer look

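Among the members, 4 of 50 groups of 4 libraries held a library far from the other 3, and among all 32 named genes 10 of 160 groups did, where chance gives about 1 in 20. Nlrp3 was 2935 normalized counts in normal glucose 6, beside 3250 to 3309 in the other 3 libraries. Casp4 was 608 in BMDM-NG-exo 3, beside 508 to 524. Nlrc4 was 1038 in PBS 2, beside 915 to 931. Naip2 was 3447 in BMDM-NG-exo 4, beside 3840 to 3900. Among the other named genes, Cgas stood high in normal glucose 1 (381 normalized counts) and in PBS 4 (477). Igtp stood low in BMDM-HG-exo 2 (346), Il1b in BMDM-HG-exo 1 (42.3) and Txnip in high glucose 6 (26856), while Txnip stood high in PBS 3 (21996).

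The effect of glucose minus that of BMDM-HG-exo against BMDM-NG-exo passed the test for 10 named genes, none of them a member, beside 4.74% of all genes. On the log2 scale it was 1.08 for Gm12250, 0.81 for Panx1, 0.71 for Irf7, 0.57 for Irgm1 and 0.57 for Igtp. For Ifi211 it was 0.63, for Zbp1 0.49, for Ninj1 0.44, for Txnip 0.33 and for Naip6 -0.26. Besides the members and the fixed genes, named genes were picked for called glucose changes in these same libraries. That choice favours a pass here, so the 10 cannot be set against the share of all genes.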

How the results depend on the processing

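The 10 calls of members kept their direction in all 213 alternative values. They were calls of Nlrp1b in glucose and of Nlrp3, Casp4 and Gsdmd in comparisons that share the PBS libraries. The groups of these calls did not overlap, so leaving out a library could not reverse a direction, and the kept direction does not measure stability. Of 1337 alternative values of member results that were not called, 8 passed the threshold. In high against normal glucose, the number of called members was 1, 0 without the trend, 0 with the replicate block, 2 with DESeq2 and 1 to 2 with 1 library left out. With the replicate block the adjusted p of Nlrp1b was 0.0525 and 18 of the 74 other pathway genes were called, not 27, but only 2 numbers occur in both glucose groups and nothing says that they mark pairs. Same-numbered glucose libraries had a mean correlation of 0.007 over 2 pairs. Without the trend 9 of the other pathway genes were called, and with 1 library left out 22 to 27. In BMDM-HG-exo against the combined controls, DESeq2 called 2 of them and leaving out 1 library gave 0 to 6. In BMDM-HG-exo against PBS, 1 member was called without the trend and 2 to 3 with 1 library left out, in BMDM-NG-exo against PBS 0 and 0 to 3, beside 3 in each. Quantile normalization lost Nlrp3 in BMDM-NG-exo against PBS (adjusted p = 0.0740). For the difference between effects, 1 member, Nlrp1b, was called with a mean of at least 50, with quantile normalization and with DESeq2, and 0 to 1 with 1 library left out. The block on the dates changed no other call of a member. The cause was not tested. The precision was lowest for the members with the fewest reads, Il18 and Casp4, which had the widest intervals.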
